A study of Homo sapiens with 4 samples.

Results

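The mitochondrial genome encodes 13 mRNAs, and 10 of them are described here by their m6A peaks in MDA-MB-231 cells: MT-ND1, MT-ND2, MT-ND4, MT-ND5 and MT-ND6 of respiratory complex I, MT-CYB of complex III, MT-CO1, MT-CO2 and MT-CO3 of complex IV, and MT-ATP6 of complex V. MDA-MB-231 is a human cell line established from a triple negative breast cancer. For these members, peaks on the mitochondrial chromosome were kept and the Ensembl gene ID of each peak was matched to the 10 genes. The list holds peaks for 10140 gene IDs, and MT-CO3 is not among them. In m6A-seq, poly(A) RNA is cut into fragments, those that carry N6-methyladenosine (m6A) are pulled down with an antibody (IP), and they are compared with input RNA that was not immunoprecipitated. The series held 2 input and 2 IP libraries. All 4 came from cells labelled shNS with no other treatment in their titles, and the treatment field of both IP libraries reads IP-YTHDC1, whereas their titles and protocol give an anti-m6A IP. The authors deposited 1 combined list of 20261 peaks, which holds neither a value per library nor an error, so the replicates could not be compared and no test was made on these genes.

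Mitochondrial mRNAs arise differently from nuclear mRNAs. Both strands of the circular genome are transcribed into long precursors, from which the mRNAs are cut out, mostly at the tRNAs that lie between them, and most of the mRNAs then receive a short poly(A) tail. They have no introns, most have little or no untranslated sequence, and they encode core subunits of the respiratory chain and of ATP synthase. MT-ND6 is the only one read from the light strand and is known to lack a stable poly(A) tail. In the deposited list its peak lies on the minus strand, and the peaks of the other mRNA genes lie on the plus strand. The best known m6A writer, METTL3 with METTL14, is a nuclear complex.

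A peak was listed for 9 of the 10 genes, which together had 13 peaks, of which 1, in MT-ND6, was on the minus strand. MT-CO3, a core subunit of cytochrome c oxidase, had none. A single peak was listed for 5 genes, and 2 peaks each for MT-ND1, MT-ND4, MT-ND5 and MT-ATP6. Among nuclear protein-coding genes, 42.7% had a listed peak (8176 of 19153 genes). That share was not limited to genes expressed in these cells. The 10 genes were proposed with earlier results of this list known, and over all mitochondrial mRNA genes 10 of 13 (76.9%) had a peak. The 3 mRNA genes outside the 10 are MT-ATP8, which had 1 peak, and MT-ND3 and MT-ND4L, which had none. The list gives no read counts, and a gene without a peak is not thereby shown to be unmethylated.

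All 15 mitochondrial peaks lay in 1 block and inside the RefSeq span of their own gene. Peaks of the 10 genes were from 61 to 525 bases long, with a median of 209 bases, against a median of 211 bases (quartiles 150 and 360) among 20246 nuclear peaks. The peaks covered 3207 of the 10545 bases of these genes (30.4%), and 30.0% over all 13 mRNA genes. Coverage differed among complexes. It was 33.7% for the 7 genes of complex I, 28.2% for MT-CYB, 11.9% for the 3 genes of complex IV and 66.8% for the 2 genes of complex V. The map of peaks along the genes shows where these bases lie.

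**Figure D1:**
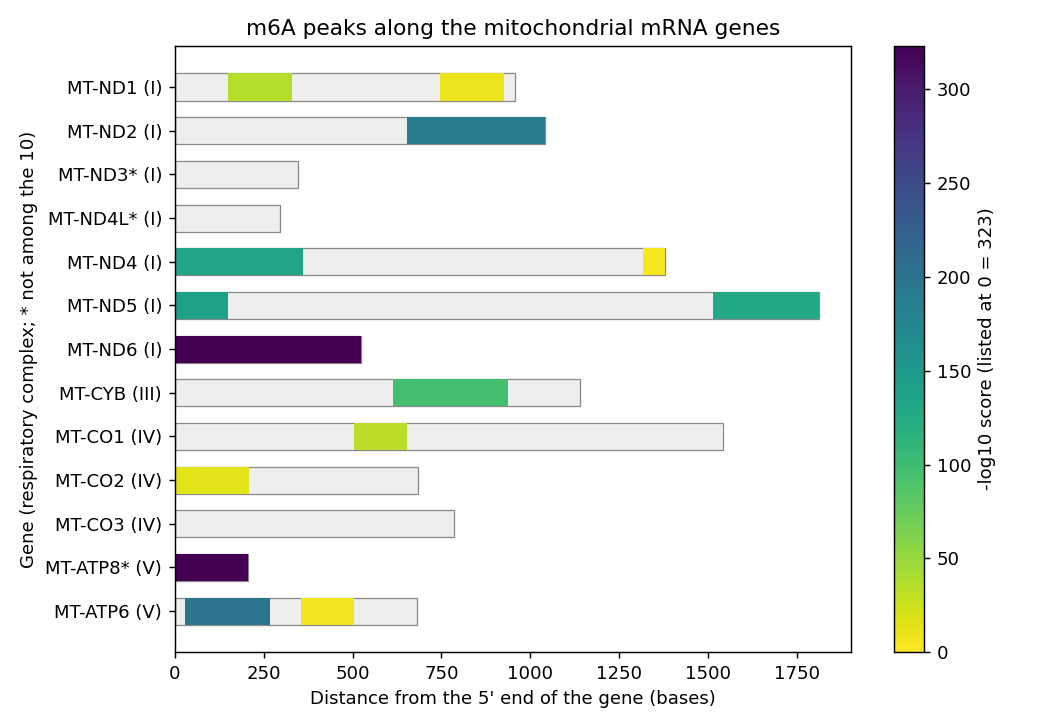
Position of each listed m6A peak (coloured blocks) along the mitochondrial mRNA genes (grey bars), in bases from the 5′ end of the gene. Colour gives the −log10 score, with scores listed at 0 drawn at 323. MT-ND6 and MT-ATP8 are covered from end to end, while MT-CO3, MT-ND3 and MT-ND4L carry no peak.

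The authors deposited 1 score per peak, taken here as the peak caller's p-value for enrichment in IP over input, although an FDR was not distinguishable from the file. A smaller score is called a stronger peak. A score reflects both enrichment and the number of reads, and these cannot be told apart in the list. Each peak is also placed below by its percentile, the share of nuclear peaks with a weaker score. Percentiles are a description, since neighbouring mitochondrial peaks come from the same precursors and are not replicates.

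The median score of the whole list was 5.2e-08, and 11 of the 13 peaks (84.6%) were at least as strong as that, a level that 50% of all peaks reach by definition. The median of the 13 percentiles was 90.4. Mitochondrial mRNA peaks were thus mostly among the stronger peaks of the list. A −log10 score of 20 or more was reached by 9 of the 13 peaks and by 28.9% of nuclear peaks, and 100 or more by 6 of the 13 peaks, on 5 genes, and by 9.3% of nuclear peaks. Nuclear peaks on the plus strand, the strand of 12 of the 13 peaks, were weaker as a group, and 2.88% of them reached 100. Against plus-strand nuclear peaks alone the median percentile was 97.0, and against minus-strand nuclear peaks it was 87.9.

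**Figure D2:**
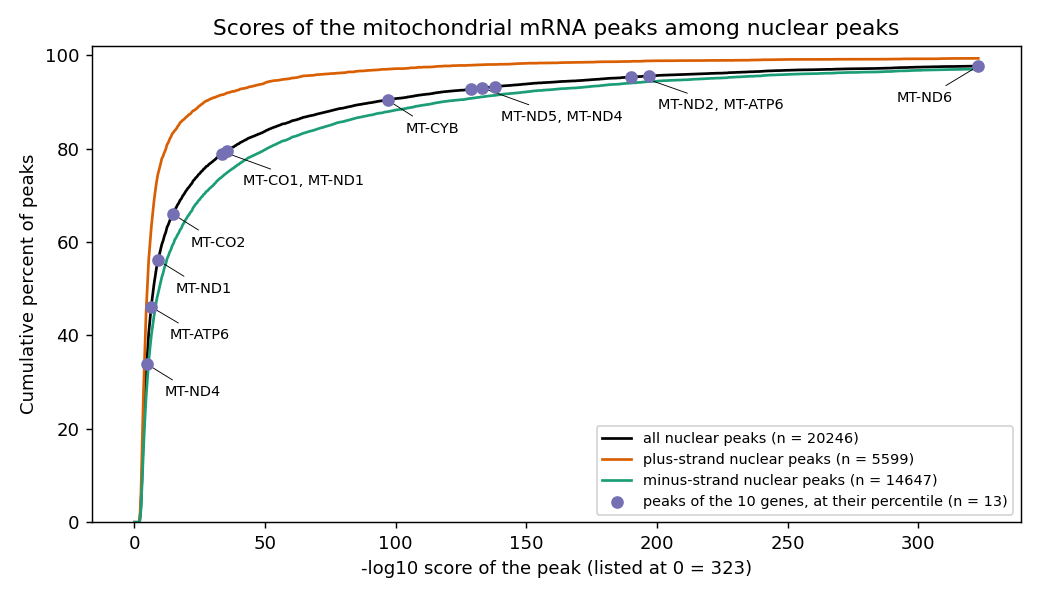
Cumulative percent of nuclear peaks (lines) by −log10 score, for all, plus-strand and minus-strand peaks, with the 13 peaks of the mitochondrial mRNA genes (points) placed on their percentile among all nuclear peaks. The points run from a percentile of 33.9 for the second MT-ND4 peak to 97.7 for MT-ND6.

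Complex I is the NADH dehydrogenase through which electrons enter the respiratory chain. Among the 10 genes, the most bases were covered in its MT-ND6 (525), MT-ND5 (447), MT-ND4 (421) and MT-ND2 (388). MT-ATP6 of complex V (386) followed, ahead of MT-ND1 (360). The 5 complex I genes among the 10 all had a peak, 8 in total. MT-ND6 (ENSG00000198695.2), described further on, had the only peak listed at 0 among the 10 genes.

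MT-ND2 (ENSG00000198763.3) had a single peak of 388 bases (chrM, 5124 to 5511, plus strand) with a score of 1e-190, at the 95.3 percentile. It occupied the 3′ end of the gene, from base 655 to the last base of 1042, or 37.2% of its length. No peak lay in the upstream 654 bases.

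MT-ND5 (ENSG00000198786.2), the longest of the 10 genes at 1812 bases, had a peak at each end. The first covered its opening 149 bases (12337 to 12485) with a score of 1e-138. The second covered its closing 298 bases (13851 to 14148) with a score of 1e-129. These 2 peaks were of nearly equal strength, at percentiles of 93.2 and 92.7, and 1365 bases without a peak lay between them. Only 24.7% of the gene was covered.

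MT-ND4 (ENSG00000198886.2) also had a peak at each end, but of very different strength. Its first 360 bases (10760 to 11119) formed a peak with a score of 1e-133, and its last 61 bases (12077 to 12137) one with a score of 2.1e-05. The latter was the shortest and weakest of the 13 peaks, at the 33.9 percentile. The start of MT-ND4 overlaps the end of MT-ND4L on the same bicistronic mRNA, so that the first peak also took in the last 7 bases of MT-ND4L.

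MT-ND1 (ENSG00000198888.2) had 2 peaks of 180 bases each. One lay at 3456 to 3635 with a score of 3.2e-36, and the other at 4053 to 4232, ending 30 bases before the 3′ end, with a score of 8.7e-10. Both were weaker than the leading peaks of the other complex I genes with a peak, at percentiles of 79.6 and 56.1. They covered 37.7% of the gene.

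MT-CYB (ENSG00000198727.2), the only mitochondrially encoded subunit of complex III, had 1 peak of 322 bases (15361 to 15682) with a score of 1.3e-97. It lay inside the gene, 614 bases from the 5′ end and 205 bases from the 3′ end. Its percentile was 90.4, the middle value of the 13 peaks.

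The genes of complex IV, cytochrome c oxidase, stood at the lower end. MT-CO1 (ENSG00000198804.2) had 1 peak of 149 bases (6408 to 6556) with a score of 2e-34, which covered 9.66% of its 1542 bases, the lowest share among the 9 genes with a peak. MT-CO2 (ENSG00000198712.1) had 1 peak over its first 209 bases (7586 to 7794) with a score of 2e-15. This was the weakest leading peak of the 9 genes, at the 66.0 percentile. MT-CO3 (ENSG00000198938.2, chrM, 9207 to 9990) had no peak in its 784 bases, although it directly follows MT-ATP6 in the genome. A stretch of 1729 bases without a plus-strand peak ran from the second MT-ATP6 peak across MT-CO3, MT-ND3 and most of MT-ND4L to the first MT-ND4 peak.

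MT-ATP6 (ENSG00000198899.2), a subunit of the proton channel of ATP synthase, had the second strongest peak of the 10 genes. It was 237 bases long (8557 to 8793) with a score of 1e-197 and began at base 31 of the gene. A second, much weaker peak of 149 bases followed after 88 bases (8882 to 9030, score 3.5e-07, percentile 46.1). MT-ATP8 (ENSG00000228253.1), which lies upstream on the same bicistronic mRNA and shares 46 bases with MT-ATP6, was covered over its whole 207 bases (8366 to 8572) by a peak listed at 0. The 2 leading peaks shared 16 bases and, if joined, form a single region over the start of this mRNA. Peaks are listed by gene, and the shared bases cannot be assigned to either gene.

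Ordered by their strongest score, the 10 genes ran MT-ND6, MT-ATP6, MT-ND2, MT-ND5, MT-ND4, MT-CYB, MT-ND1, MT-CO1 and MT-CO2, with MT-CO3 last for lack of a peak. Without replicate values it cannot be said which neighbours in this order differ. The largest steps between neighbours were below MT-ND6, whose score is at the limit of stored numbers, and between MT-CYB (−log10 score 96.9) and MT-ND1 (35.5). MT-ND5 (138) and MT-ND4 (133) lay close together, as did MT-ND1 and MT-CO1 (33.7). Among nuclear genes with a peak, 95.8% had a weaker strongest score than MT-ND6 and 54.8% a weaker one than MT-CO2.

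Peaks were not gathered at one end of the genes. When each gene was cut into 3 equal parts, the midpoint of the peak fell in the first part in 5 cases, in the middle part in 3 and in the last part in 5. Several peaks ran exactly to the annotated end of their gene. Of the 13 peaks, 4 began at the first base (MT-CO2, MT-ND4, MT-ND5 and MT-ND6) and 4 ended at the last base (MT-ND2, MT-ND4, MT-ND5 and MT-ND6). In all, 7 peaks on 5 genes touched an end. The peak caller searches within the annotated bases of each gene, and enrichment beyond that end would not extend the peak.

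Among the 10 genes, MT-ND6 stood apart in strand, extent and score. Its single peak of 525 bases (chrM, 14149 to 14673, minus strand) was listed at 0 and coincided with the RefSeq span of the gene at both ends. A score of 0 was listed for 464 nuclear peaks (2.29%), which cannot be ordered against it. Those peaks had a median length of 630 bases, and 168 of them were no longer than 525 bases. A score of 0 was more frequent among minus-strand nuclear peaks (2.92%) than among plus-strand ones (0.661%). Minus-strand nuclear peaks were also longer, with a median of 240 against 181 bases. The part of strand in the extent and score of the MT-ND6 peak was not tested. Outside the 10 genes, MT-ATP8 on the plus strand was also covered from end to end by a peak listed at 0. Coverage of a whole RefSeq span was rare in the nuclear genome, where it was found for 5 of 18215 peaks on matched genes (0.0274%). Most of those spans hold introns, however, which an mRNA peak does not cover. Among nuclear protein-coding genes with a span of 525 to 1812 bases, the range of the 10 genes, it was found for 1 of 150 peaks (0.667%). The shortest of these nuclear spans was 641 bases, so none was as short as MT-ND6.

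**Figure D3:**
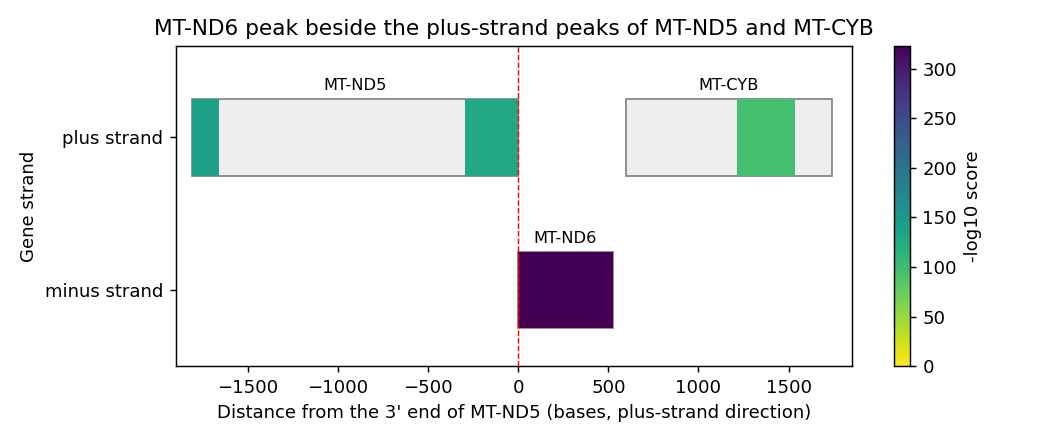
Genes (grey) and listed peaks (coloured by −log10 score) on the plus and minus strands, in bases from the 3′ end of MT-ND5, which is marked by a dashed line. The MT-ND6 peak begins at the base after the second MT-ND5 peak ends and shares no base with a plus-strand peak.

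The MT-ND6 peak shared 0 bases with the 14 plus-strand mitochondrial peaks. It abutted the second peak of MT-ND5, which ended at 14148, with 0 bases between them. On the other side, 687 bases separated it from the peak of MT-CYB. No other mRNA gene overlaps MT-ND6 in the annotation. Its span begins at the base after that of MT-ND5, and 73 bases lie between it and that of MT-CYB. Since peaks are searched within annotated genes, no shared base was possible here, and the 0 carries no information on m6A. The peaks of MT-ND5 and MT-ND6 abut because each runs to the end of its gene and the genes adjoin. Overlap with a peak on the opposite strand was listed for 17.8% of nuclear plus-strand peaks (997 of 5599) and 7.07% of nuclear minus-strand peaks (1035 of 14647). None of the nuclear peaks abutted a peak on the opposite strand without a gap. The nuclear overlaps come from genes that overlap in the annotation, so these shares are no yardstick for MT-ND6. The region opposite MT-ND6 is transcribed as part of the plus-strand precursor, and the sources used here do not state whether reads were counted by strand. RNA of the 2 strands under this peak therefore cannot be told apart. In the plot of this region, the listed signal runs without a break for 823 bases from the end of MT-ND5 through MT-ND6, on one strand and then on the other.

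Short nuclear genes offer the nearest comparison for coverage, although their spans too can hold introns, which an mRNA peak does not cover. In all, 101 nuclear protein-coding genes had a peak and a span within the 525 to 1812 bases of the 10 genes. Their spans ran from 641 to 1787 bases. The median share of the span under peaks was 25.7% (quartiles 13.3 and 45.8%). For the 9 mitochondrial genes with a peak it was 30.6%, with a range from 9.66 to 100%. The mitochondrial genes other than MT-ND6 and MT-ATP6 (56.7%) thus lay within or below the quartiles of short nuclear genes. The median −log10 of the strongest score was 133 for the 9 genes and 22.2 for the short nuclear genes, of which 13 had a peak listed at 0.

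Nuclear copies of mitochondrial DNA share sequence with these genes, and the alignment kept reads that mapped to several places. The gene table holds 404 nuclear pseudogenes or copies named after mitochondrial genes, 355 of them after the 10 genes. Only MTND4P12 (ENSG00000247627.2) had a peak, of 181 bases on chromosome 5 (134926989 to 134927169, minus strand) with a score of 1e-13. It lay at bases 868 to 1048 of the 1376-base pseudogene, whereas the peaks of MT-ND4, which is 1378 bases long, lay at bases 1 to 360 and 1318 to 1378. The 2 sequences were not aligned here. The cluster of 7 such pseudogenes on chromosome 1 (629062 to 634922), which includes copies of MT-ND2, MT-CO1, MT-CO2, MT-ATP6 and MT-CO3, had no peak.

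The nuclear partners of these proteins, 74 structural subunits of complexes I, III, IV and V, had a peak in 28 cases (37.8%). The share of all nuclear protein-coding genes, with no filter on expression, was 42.7%. How the subunits compare with expressed genes was not tested. Of the 74, 19 (25.7%) had one at or under the list median, against 27.8% of all. By complex a peak was listed for 16 of 37 genes for complex I, 3 of 9 for complex III, 2 of 11 for complex IV and 7 of 17 for complex V. Complex IV had the smallest share of nuclear genes with a peak. Among the mitochondrial genes it had the smallest share of bases covered, which is a different measure. Counted by genes, a peak was listed for 2 of its 3 mitochondrial genes, against 5 of 7 for complex I. Neither of the complex IV nuclear genes with a peak, NDUFA4 (2.8e-06) and COX6A1 (3.9e-06), reached the list median. The median −log10 of the strongest score was 10.8 over the 28 genes, and 3 of them reached 100. The 2 strongest within each other complex were NDUFB8 (1e-156) and NDUFA2 (2.5e-93) in complex I, and ATP5PF (1e-127) and ATP5MF (1e-114) in complex V. In complex III they were UQCR11 (1.6e-85) and UQCRFS1 (1.7e-09). The ATP5PF peak overlapped a peak on the opposite strand.

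Nuclear genes for mitochondrial transcription and RNA maturation had a peak in 18 of 24 cases (75.0%, against 42.7%), and 16 (66.7%, against 27.8%) had one at or under the list median. Of the 18, 12 were on the minus strand and 6 on the plus strand. The strongest were ELAC2, the enzyme that cuts precursors at the 3′ end of tRNAs (chromosome 17, 12992270 to 12992899, score 1e-239), and MTPAP, the mitochondrial poly(A) polymerase (chromosome 10, 30313004 to 30313782, score 1e-233). Both genes are on the minus strand, where 11.8% of nuclear peaks reached a −log10 score of 100. The shares of all nuclear protein-coding genes were not limited to expressed genes. The part of strand or of expression in the difference between the lists was not tested.

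**Figure D4:**
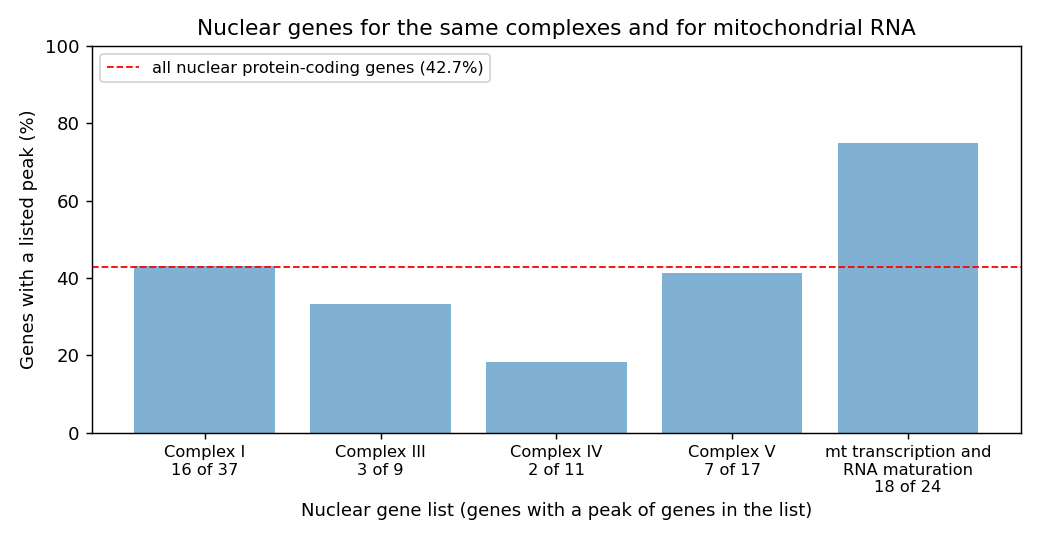
Percent of genes with at least 1 listed peak among nuclear subunits of complexes I, III, IV and V and among nuclear genes for mitochondrial transcription and RNA maturation (bars from 0, 1 value per list with no replicates). The dashed line is the 42.7% of all nuclear protein-coding genes, with no filter on expression. The bar of complex I (43.2%) is close to the line, and the last bar (75.0%) lies above it.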

How the data were processed

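m6A-seq libraries were made from poly(A) RNA with a stranded kit. Per the labels and the study's methods, the authors aligned reads with STAR to a GENCODE annotation (hg38), keeping reads that mapped to several places, and called peaks with exomePeak at default settings, with thresholds on fold enrichment and FDR. The deposited score was taken as a p-value from the authors' caller, and values of 0 were set to a −log10 of 323. The depth behind each peak is unknown. Groups were taken from the titles.

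Here, gene IDs were matched to symbols and to RefSeq spans (GRCh38.p14), which succeeded for all 13 mitochondrial mRNA genes, both rRNA genes and 98 of 98 nuclear list genes. Coordinates are counted from 1. Coverage is the union of a gene's peaks within its span. Named were the 10 genes, the other mitochondrial mRNAs and rRNAs, the 2 nuclear genes with the smallest score per list, and nuclear pseudogenes with a peak. The members and lists were chosen with earlier results of these data known. Interval functions were tested on simulated data (Python 3.11.15, pandas 2.3.3). Motif counts were not run, and no sequence is shown, since a genome sequence was not used here.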

Additional observations from a re-analysis of the deposited data

How the results depend on the processing

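The alternatives were scores no larger than the list median, a −log10 score of at least 20, merging of same-strand peaks, the first part of the list alone, counting any peak on the same strand, a larger minimum overlap, and other sets of nuclear peaks for the percentiles. The set of minus-strand nuclear peaks was added after seeing the data. Of the values recomputed, 62 stayed within 1.5 times the count or within the 95% binomial interval of the share, and 16 did not. This rule only sorts the values. Adjoining bases and linked peaks are not independent, so the interval does not measure their uncertainty. Covered bases fell because fewer peaks remain. At the median score the share covered was 28.4% for the 10 genes and 28.1% for all 13, with 360 bases of MT-ND4 and 237 of MT-ATP6. At a −log10 of at least 20 both shares were 24.7%, with 180 bases of MT-ND1, 360 of MT-ND4, 237 of MT-ATP6 and 0 of MT-CO2, so that 8 of the 10 genes kept a peak. Counting any same-strand peak gave 416 bases of MT-ATP6 and 7 of MT-ND4L. The median percentile was 89.4 among peaks of protein-coding genes, 97.0 among plus-strand, 92.4 among single-block and 87.9 among minus-strand nuclear peaks. The overlap of MT-ND6 with plus-strand peaks or genes was 0 bases in each case, which the annotation fixed in advance. No paired analysis was possible because the 4 libraries were combined by the authors into 1 score for each peak, and no replicate could be left out for the same reason. Without the depth, little can be concluded about the lack of a peak in MT-CO3, MT-ND3 and MT-ND4L.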

Other observations

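Outside the mRNA genes, the mitochondrial chromosome had 1 more peak, in MT-RNR2 (ENSG00000210082.2), the RNA of the large mitochondrial ribosomal subunit. It was 211 bases long (chrM, 2150 to 2360, plus strand), from base 480 to base 690 of the 1559-base gene, with a score of 1e-135 at the 93.1 percentile of nuclear peaks. This is the range of the leading MT-ND4 and MT-ND5 peaks. MT-RNR1, the RNA of the small subunit, had no peak in 954 bases, and none of the 22 tRNA genes had one. With MT-RNR2 and MT-ATP8, 15 peaks on 11 of the 37 mitochondrial genes were listed, 0.074% of all peaks.

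The MT-ATP8 peak was short for a score of 0. Of the 464 nuclear peaks listed at 0, 3 were 207 bases long or shorter.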
